A study of Homo sapiens with 12 samples.

Results

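The 5 genes described here were ALPP, ALPG and ALPI, which lie together on chromosome 2, ABLIM1 on chromosome 10 and NEDD4L on chromosome 18. They were chosen by measured values of these data, the presence of strong H3K27ac peaks near them in both cobimetinib libraries and not in the untreated ones, so their values under cobimetinib against untreated cells are given as a description and not as a finding. All H3K27ac peaks within 50 kb of the 5 gene bodies (GENCODE release 44, hg38) were taken, which came to 77 and 82 peaks in the untreated libraries, 93 and 73 under cobimetinib and 86 and 75 under TNFα, in each case replicate 1 before replicate 2. The 20000 highest-scoring peaks of each list, joined within 100 bp across libraries, formed 38598 regions in the whole series, of which 30 lay near the 5 genes: 3 in the alkaline phosphatase cluster, 15 at ABLIM1 and 12 at NEDD4L.

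The series measured acetylation of histone H3 at lysine 27, a mark of active promoters and enhancers, by CUT&RUN in HCT116, a human colorectal cancer line. All libraries came from this 1 line, and the replicates are repeats of each treatment. Cells were untreated, exposed to 1 μM cobimetinib, an inhibitor of the MAP kinase kinase MEK, for 24 h, or exposed to the inflammatory cytokine TNFα at 100 ng/ml for 24 h. Each condition had 2 H3K27ac libraries. The 6 IgG control libraries were not analysed here, so no background from a nonspecific antibody stands beside the peaks.

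ALPP, ALPG and ALPI encode the placental, germ cell and intestinal alkaline phosphatases, membrane-anchored enzymes that arose by duplication and remain neighbours. The intestinal enzyme sits in the brush border of differentiated enterocytes, where it removes phosphate from bacterial lipopolysaccharide. ABLIM1 encodes an actin-binding LIM protein that joins LIM domains to a villin headpiece, and its transcripts begin at several alternative starts. NEDD4L encodes an E3 ubiquitin ligase of the HECT family that marks the epithelial sodium channel and other membrane proteins for internalization, and it also has many starts. H3K27ac at a start usually accompanies an active promoter, and away from starts it usually accompanies an active enhancer.

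The lists held 69813 to 124771 peaks. Since the score of a peak rises with sequencing depth, each peak was given its rank within its own list, 1 being the highest score, and equal scores shared 1 rank. Read counts and depth are unknown from peak lists, so no counting interval is given. Untreated replicate 2 stood apart from the other libraries: the median width of its 20000 highest peaks was 380 bp, against 922 to 1265.5 bp elsewhere, and 7102 of its peaks tied at the last score taken, against 332 to 533 elsewhere. Of 6 colorectal epithelium markers, 4 (EPCAM, KRT8, KRT18 and KRT19) had a peak within 1 kb of a coding start in every library, KRT8 at ranks 318 to 2259, while VIL1 had none and CDH1 had one only in untreated replicate 1 (rank 84592) and TNFα replicate 2 (rank 65603). Of 8 markers of other cell types, 5 had no peak in any library, and COL1A1, a collagen gene used as a fibroblast marker, had a peak in all 6 at ranks 2327 to 9879. COL1A2 had a peak only in cobimetinib replicate 2, and PECAM1 had peaks at rank 84592 in untreated replicate 1, at 74494 and 9913 under cobimetinib and at 104160 and 80344 under TNFα.

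In each locus 1 region stood at the head under cobimetinib, and its sequence is shown because the description turns on it. Each sequence is 300 bases of hg38 inside the part covered by both cobimetinib peaks. The window between ALPP and ALPG is chr2:232385769-232386068 on the plus strand, at the centre of that part. The ABLIM1 window is chr10:114685004-114685303 on the minus strand, the strand of the gene, and ends at the base before the outer of 2 annotated starts. The NEDD4L window is chr18:58270061-58270360 on the plus strand, again at the centre. Capitals mark a match to 1 of 11 transcription factor words, TEAD (CATTCCA) in the first and HNF4 (CAAAGTC) in the second, and the third window holds no match.
ALPP-ALPG region: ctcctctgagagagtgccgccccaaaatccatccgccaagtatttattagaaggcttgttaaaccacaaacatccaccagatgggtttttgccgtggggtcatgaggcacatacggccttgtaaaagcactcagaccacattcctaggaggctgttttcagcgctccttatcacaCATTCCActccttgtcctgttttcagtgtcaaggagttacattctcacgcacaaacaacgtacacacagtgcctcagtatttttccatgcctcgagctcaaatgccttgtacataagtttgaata
ABLIM1 start region: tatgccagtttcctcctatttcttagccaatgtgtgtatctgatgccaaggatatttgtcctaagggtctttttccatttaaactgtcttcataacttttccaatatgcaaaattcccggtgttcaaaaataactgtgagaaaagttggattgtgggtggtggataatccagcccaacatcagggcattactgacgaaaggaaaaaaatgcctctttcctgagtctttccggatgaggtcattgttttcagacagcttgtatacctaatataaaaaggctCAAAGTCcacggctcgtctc
NEDD4L intron region: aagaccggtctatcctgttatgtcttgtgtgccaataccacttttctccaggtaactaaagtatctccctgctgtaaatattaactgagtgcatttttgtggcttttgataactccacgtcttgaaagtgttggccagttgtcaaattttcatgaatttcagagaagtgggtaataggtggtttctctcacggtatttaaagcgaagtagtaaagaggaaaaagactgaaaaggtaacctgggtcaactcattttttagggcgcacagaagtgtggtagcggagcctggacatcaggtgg

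The region between ALPP and ALPG was among the strongest peaks of both cobimetinib lists and was absent from both TNFα lists. It spans chr2:232385293-232386515, 1223 bp, and lies 2404 bp past the 3′ end of ALPP, 6542 bp from the ALPP start, 20329 bp before the ALPG start and 69638 bp before the ALPI start. It overlaps 766 bp of an lncRNA annotated as ECEL1P2 and ends 529 bp short of the start of that transcript. The peak ranked 1214 and 511 under cobimetinib, ranked 21615 in untreated replicate 1 and was absent from untreated replicate 2 and from both TNFα libraries. Both cobimetinib ranks were therefore ahead of all others. The peak was 1125 and 1223 bp wide under cobimetinib and 416 bp wide in untreated replicate 1. In untreated replicate 2 the nearest peak lay 402 bp away, at the lncRNA start, was 178 bp wide and had the tied score of 44.

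The strongest ABLIM1 region under cobimetinib covered a pair of annotated coding starts inside the gene. It spans chr10:114684296-114685562, 1267 bp, and contains the starts at 114684457 and 114685003, 546 bp apart, which lie 83.1 kb downstream of the first start of this minus-strand gene. Its ranks were 1006 and 915 under cobimetinib, 25393 and 33224 under TNFα, 70125 in untreated replicate 1 and absent in untreated replicate 2. The TNFα ranks thus lay between those of the other conditions without overlapping either. Widths followed the same order, with 1227 and 1114 bp under cobimetinib, 779 and 778 bp under TNFα and 311 bp in untreated replicate 1.

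The strongest NEDD4L region under cobimetinib was intronic. It spans chr18:58268456-58271081, 2626 bp, 13016 bp past the start at 58255440 and 20121 bp before the start at 58291202, and lies 224230 bp from the first start of the gene. It ranked 233 and 1963 under cobimetinib, 20344 and 83958 in untreated cells and 80957 and 61341 under TNFα. The untreated and TNFα ranks overlapped, and both cobimetinib ranks were ahead of them. Width did not follow rank here, since the best peak was 1597 and 2257 bp wide under cobimetinib, 2099 and 280 bp wide in untreated cells and 405 and 820 bp wide under TNFα.

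**Figure D1:**
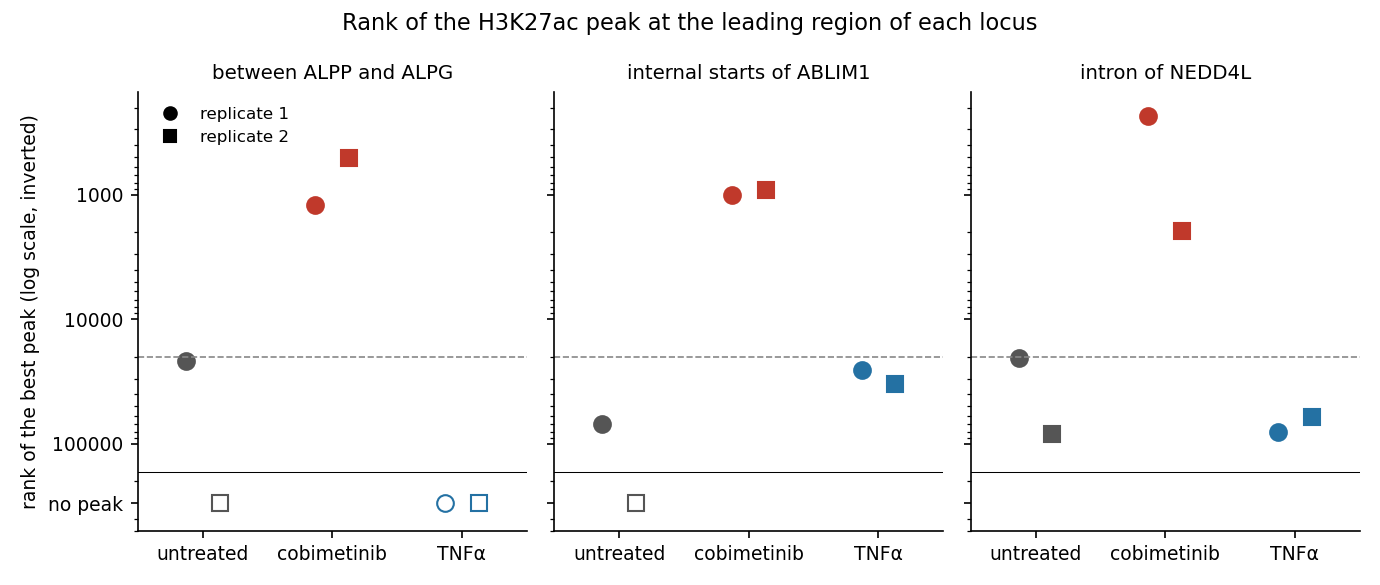
Rank of the best H3K27ac peak at the leading region of each locus in each library (y axis, log scale with rank 1 towards the top; filled symbols, circles for replicate 1 and squares for replicate 2; open symbols, no peak). The dashed line marks rank 20000. Both cobimetinib libraries lie at ranks 233 to 1963 in the 3 panels and every other library lies at 20344 or beyond or has no peak.

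All 3 regions met the presence rule that chose these genes, a region held by the 20000 highest peaks of both cobimetinib libraries and of neither untreated library, and so did 4 others. Of the 30 regions, 7 were gained in this sense, against 3.92% of all regions, and 1 was lost, against 1.6%. Nothing is read from these shares, because gained regions chose the genes. Values near the edge of the rule matter for a pair of the leading regions: with ties in the order of the list, the untreated replicate 1 peak stood at place 21920 in the alkaline phosphatase cluster and at place 20434 in NEDD4L, just outside 20000. With 40000 peaks from each list neither region counts as gained, although their cobimetinib ranks are the same, while the ABLIM1 region still does. Per library, 10 and 12 of the 30 regions were held in untreated cells, 18 and 18 under cobimetinib and 13 and 15 under TNFα, and 17 had a peak of any score in all 6 lists. These counts have no share over all regions beside them and are affected by the choice of the genes, so nothing is read from them.

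**Figure D2:**
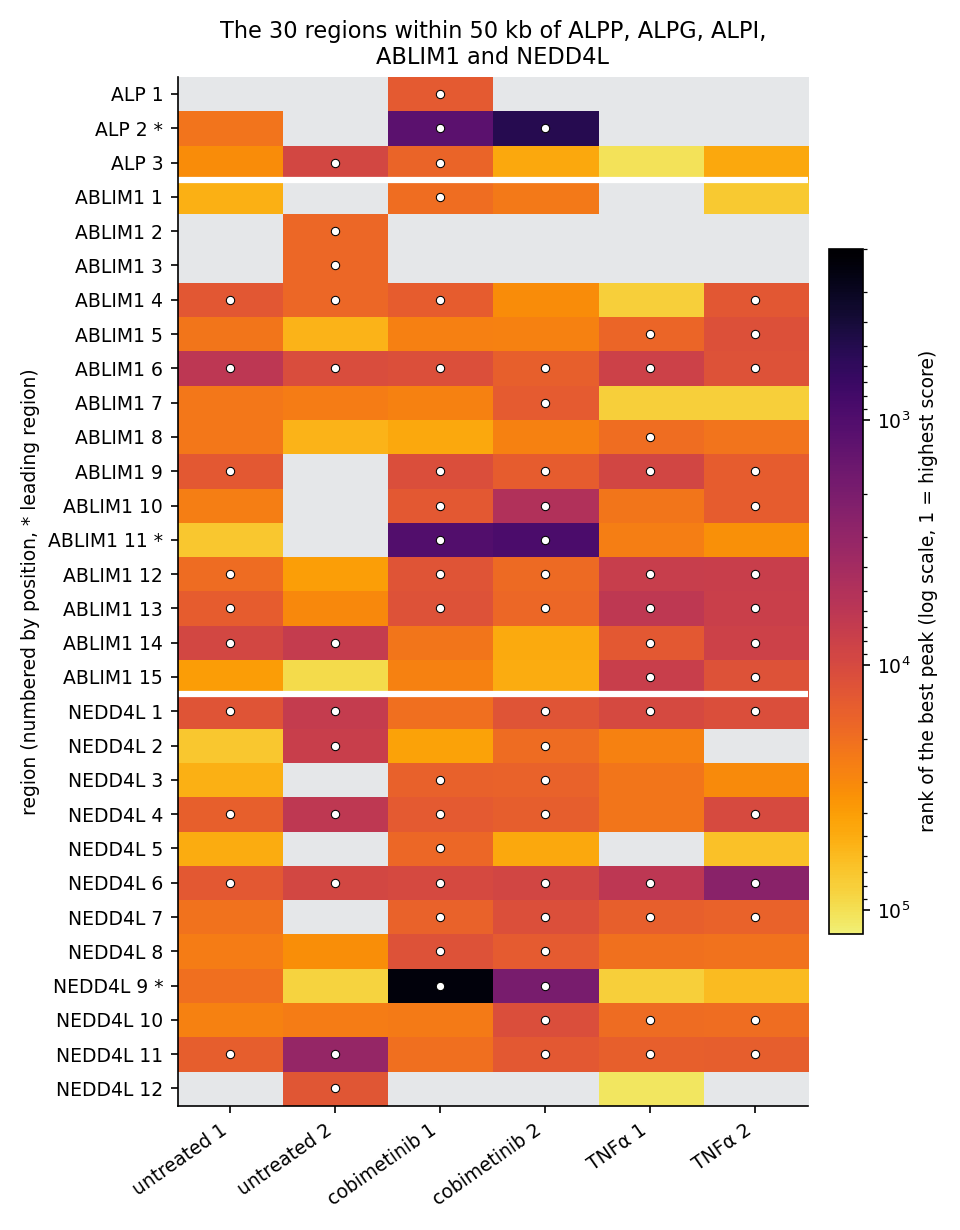
Rank of the best H3K27ac peak (colour, log scale, darker for higher ranks; grey, no peak) in the 30 regions near the 5 genes, in rows numbered by genomic position within each locus, for the 6 libraries in columns. White dots mark a peak among the 20000 highest of its list, and asterisks mark the leading regions, whose cobimetinib columns are the darkest cells of their locus.

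The other gained regions lay in introns. At ABLIM1 a second region, chr10:114634292-114635374, 2200 bp from the nearest coding start, ranked 13448 and 4966 under cobimetinib, 22110 and 14614 under TNFα and 25283 or absent in untreated cells. At NEDD4L, chr18:58186343-58187228 ranked 16265 and 16367 under cobimetinib, 52232 or absent in untreated cells and 22564 and 30982 under TNFα. Cobimetinib was likewise ahead of both other conditions at chr18:58262936-58264003, a neighbour of the leading region, with 12008 and 14077 against 24554 and 32440 untreated and 20655 and 21158 under TNFα. As a percentage of list length, however, the cobimetinib and TNFα values of these NEDD4L regions overlapped. They were 15.3 and 23.4 against 19.5 and 33.4 at the first and 11.3 and 20.2 against 17.9 and 22.8 at the second. Cobimetinib stayed ahead of untreated at both. At chr18:58230170-58232218 the cobimetinib ranks of 16542 and 11398 and the TNFα ranks of 15145 and 16545 overlapped, and both pairs were ahead of 21101 and absent in untreated cells.

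By rank alone, both cobimetinib libraries were ahead of both untreated libraries in 11 of the 30 regions, against 19.3% of all regions, and behind in 2, against 11.4%. The genes were chosen by peaks of these same libraries, so nothing is read from the shares. The 11 were 1 in the alkaline phosphatase cluster, 4 at ABLIM1 and 6 at NEDD4L, and the 2 were both at ABLIM1. One of these, chr10:114779389-114781131, lies 11328 bp upstream of the first ABLIM1 start in a lncRNA gene and was the only region lost under cobimetinib. It ranked 9465 and 7060 in untreated cells, 22080 and 48252 under cobimetinib and 13456 and 8124 under TNFα, so the untreated and TNFα values overlapped.

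The TNFα libraries were not used to choose the genes, but the untreated libraries were, through regions they did not hold. The untreated side of the counts below is therefore affected by that choice, and nothing is read from the shares. In addition, 2 libraries against 2 cannot give a two-sided exact permutation p under 0.333, so these values too are a description. Of the 30 regions, 4 were gained under TNFα, against 3.56% of all regions, and 0 were lost, against 1%; no test was run. TNFα ranks were ahead of untreated ranks in 12, against 16.9%, and behind in 2, against 9.56%. None of the 12 was in the alkaline phosphatase cluster, and 7 were at ABLIM1 and 5 at NEDD4L. The gained regions were 2 at ABLIM1 and 2 at NEDD4L. In the first of them, chr10:114788192-114788811, 20131 bp upstream of the first ABLIM1 start, TNFα ranks were 7507 and 12035, untreated ranks 39943 and 94135 and cobimetinib ranks 26866 and 49608. The second, chr10:114519873-114521071, ranked 17334 and 11568 under TNFα, 22206 and 54671 in untreated cells and 26257 and 27195 under cobimetinib. In both the cobimetinib and untreated values overlapped and TNFα was ahead of them.

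Set directly against each other, both cobimetinib ranks were ahead of both TNFα ranks in 10 of the 30 regions, against 21.8% of all regions, and behind in 8, against 20.3%. ABLIM1 held 6 of the 8 and 4 of the 10, NEDD4L 2 and 4, and the alkaline phosphatase cluster none and 2. By presence, 5 regions were held by both cobimetinib and neither TNFα library, against 4.39%, and 3 by both TNFα and neither cobimetinib library, against 5.41%. Because the genes were chosen by their peaks in the cobimetinib libraries, the cobimetinib side of these counts is set by that choice and nothing is read from the shares. The 5 comprised the 3 leading regions and 2 more at NEDD4L, and the 3 were all at ABLIM1. A pair of intronic regions upstream of the leading ABLIM1 region also had TNFα ahead: chr10:114708742-114709795 ranked 7341 and 7623 under TNFα, 12625 and 18661 under cobimetinib and 18998 and 40964 in untreated cells, and chr10:114754039-114755437 ranked 6317 and 7776 under TNFα, 12008 and 17838 under cobimetinib and 14676 and 30557 in untreated cells.

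At NEDD4L 1 region was held by all 6 libraries. It spans chr18:58222825-58224823, 1254 bp past a group of coding starts, and ranked 13365 and 9612 in untreated cells, 9882 and 9183 under cobimetinib and 6266 and 2540 under TNFα. TNFα was ahead of both other conditions, which overlapped. At chr18:58289451-58290743, 459 bp before the start at 58291202, the TNFα ranks of 19301 and 19513 and the cobimetinib ranks of 24291 and 11054 overlapped. By rank both pairs were ahead of the untreated 26770 and 24926. As a percentage of list length, however, both pairs overlapped with the untreated values, so neither kept its order. A further NEDD4L region, chr18:58314148-58316219, was led by untreated replicate 2 at rank 3125, with 13422 to 20442 in the other 5 libraries. Of the 8 regions held by a single library, 3 were held by untreated replicate 2 alone.

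The alkaline phosphatase genes were compared at their own starts. The 3 genes have 1 coding start each, and the 120 bases before it are shown because the genes are close relatives that short reads may not tell apart. The windows are chr2:232378631-232378750 for ALPP, chr2:232406724-232406843 for ALPG and chr2:232456033-232456152 for ALPI, from RefSeq promoters on hg38, all on the plus strand. Capitals mark the longest stretch common to the 3 promoter sequences, 15 bases.
ALPP: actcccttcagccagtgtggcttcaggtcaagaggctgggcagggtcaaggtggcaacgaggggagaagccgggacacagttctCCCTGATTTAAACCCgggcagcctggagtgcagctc
ALPG: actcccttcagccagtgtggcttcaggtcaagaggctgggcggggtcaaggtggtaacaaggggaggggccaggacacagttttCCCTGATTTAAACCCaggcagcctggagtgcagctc
ALPI: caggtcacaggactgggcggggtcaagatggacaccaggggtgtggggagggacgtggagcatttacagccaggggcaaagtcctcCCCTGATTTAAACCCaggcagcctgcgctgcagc

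No library had a peak within 1 kb of the ALPG start or of the ALPI start. The ALPP start had one only in cobimetinib replicate 2, a peak of 796 bp at rank 38939 that ended at the start, with another of 404 bp at rank 43186 just inside the gene. Cobimetinib replicate 1 had none there, so the start of ALPP gave no value common to both replicates. The acetylated region between ALPP and ALPG was thus not accompanied by a peak shared by both cobimetinib libraries at the start of any of the 3 genes.

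Peaks of lower rank in the cluster were also more frequent under cobimetinib. The window held 5 and 6 peaks in untreated cells, 15 and 13 under cobimetinib and 3 and 4 under TNFα, or 5.75 and 4.81, 14.1 and 18.6, and 2.6 and 4.31 per 100000 peaks of each list. By gene, both cobimetinib libraries had more peaks per list length than the other 4 around ALPP, ALPG and ALPI, 3 of the 5 genes, against 14.3% of all coding genes with a window of the same kind. The windows of the 3 genes overlap and share peaks, so they are not separate observations, and they count the peaks by which the cluster was chosen, so nothing is read from this share. The values per 100000 around ALPP were 12.2 and 15.8 under cobimetinib, 3.45 and 2.4 in untreated cells and 0 and 3.24 under TNFα. Around ALPI they were 5.64 and 5.73 under cobimetinib, 4.6 and 3.21 untreated and 2.6 and 2.16 under TNFα, a smaller gap between cobimetinib and untreated than at ALPP, which was not tested. Without scaling, the ALPI window held 6 and 4 peaks under cobimetinib, 4 and 4 untreated and 3 and 2 under TNFα. Its excess over untreated cells thus depended on the scaling to list length.

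Most of these lower peaks were not shared between replicates. Joined across libraries, the peaks of the cluster made 27 sites, of which 18 were in 1 library, 14 were in cobimetinib libraries alone, 6 were in both cobimetinib libraries, 1 was in both untreated and 1 in both TNFα libraries. These counts have no share over all sites beside them and include the peaks that chose the cluster, so nothing is read from them. Besides the leading region, sites in both cobimetinib libraries included chr2:232365561-232365937, 12814 bp upstream of ALPP, at ranks 30576 and 30308, and chr2:232398039-232399101, 7743 bp upstream of ALPG, at ranks 23687 and 30308. Neither had a peak in the other 4 libraries. The site with a peak in all 6 lists lay in the pseudogene DIS3L2P1, 11065 bp before the ALPI start, and ranked 31511 and 9612 in untreated cells, 17109 and 45805 under cobimetinib and 104160 and 47278 under TNFα. There the cobimetinib and untreated ranks overlapped, so the ALPI side of the cluster did not show the order seen between ALPP and ALPG.

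**Figure D3:**
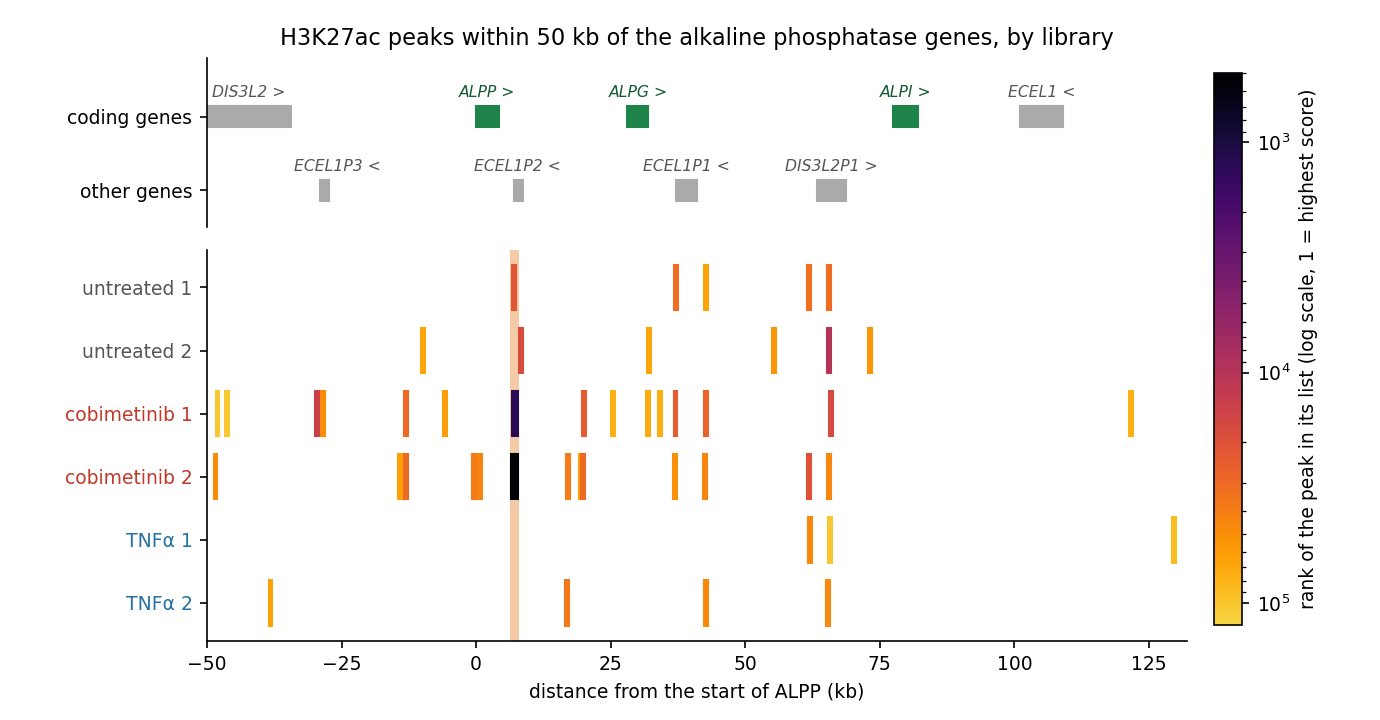
H3K27ac peaks of the 6 libraries within 50 kb of ALPP, ALPG and ALPI (x axis, distance in kb from the start of ALPP; colour, rank of the peak on a log scale; peaks under 700 bp are drawn 700 bp wide), with genes above and > or < for the strand. The shaded region between ALPP and ALPG holds the cobimetinib peaks of rank 1214 and 511 and an untreated peak of rank 21615.

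Sequence likeness bears on how reads of this cluster could be placed. The 300-base RefSeq promoters (250 bases before and 50 after the start) were 82.7% identical between ALPP and ALPG, 56% between ALPP and ALPI and 57.3% between ALPG and ALPI, and the gene bodies 85.4%, 72.4% and 68.1%. The authors kept reads with mapping quality above 10, which removes reads that fit several places. Of stretches of 150 bases, 9.14% of those in the ALPP body and 9.86% of those in the ALPG body occurred again in the cluster, and none did in the ALPI body or the leading region. Of stretches of 50 bases the shares were 28.4%, 29.8%, 0.939% and 0%. How far this filter bears on peaks at the ALPP and ALPG starts was not tested.

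**Figure D4:**
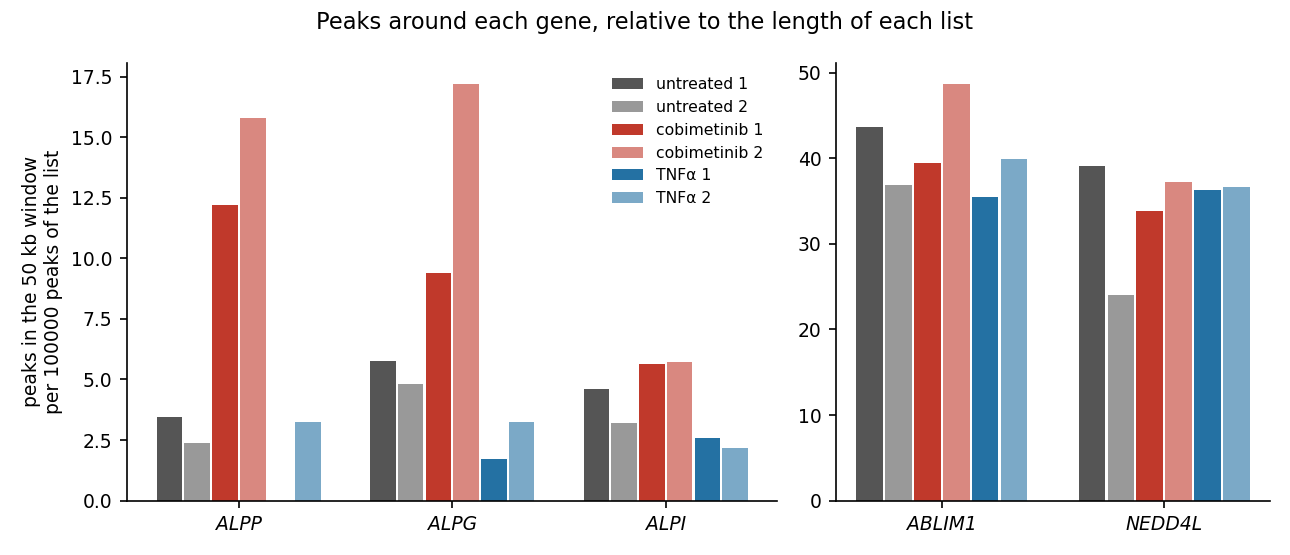
Peaks in the window of each gene (gene body and 50 kb on both sides) per 100000 peaks of the list, 1 bar for each library, with a separate axis for ABLIM1 and NEDD4L. The cobimetinib bars are the highest around ALPP, ALPG and ALPI, from 5.64 to 17.2, and overlap with the others around ABLIM1 and NEDD4L.

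Around ABLIM1 and NEDD4L the number of peaks did not separate the conditions. ABLIM1 had 43.7 and 36.9 peaks per 100000 in untreated cells, 39.5 and 48.7 under cobimetinib and 35.5 and 39.9 under TNFα. NEDD4L had 39.1 and 24, 33.9 and 37.2, and 36.3 and 36.7. The 113 sites at ABLIM1 included 2 in both cobimetinib and no untreated library and 2 in both untreated and no cobimetinib library, and the 93 sites at NEDD4L included 1 of each kind. These site counts have no share over all sites beside them, so nothing is read from them.

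The alternative starts of ABLIM1 did not respond alike. Starts of a gene within 1 kb of the next were put in 1 group, which gave 6 groups from 11 coding starts of ABLIM1. Besides the pair of starts in the leading region, by rank 1 group was ahead of untreated under cobimetinib and 1 was behind. No share over the start groups of all coding genes stands beside these counts, so nothing is read from them. The group behind was the one ranked highest in untreated cells, with 3 starts at 114526835 to 114526931, 241 kb downstream of the first, and it ranked 6144 and 10854 in untreated cells, 11233 and 15475 under cobimetinib and 8137 and 12035 under TNFα. The gap was narrow, from 10854 to 11233, and the TNFα values overlapped with both. The group ahead was the last start, at 114487993. It ranked 59530 or was absent in untreated cells, 37855 and 49608 under cobimetinib and 26692 and 34318 under TNFα. By rank TNFα was ahead of both other conditions. The list of cobimetinib replicate 2 was the shortest, with 69813 peaks against 86952 in untreated replicate 1. Relative to list length cobimetinib overlapped with both untreated cells and TNFα, so only TNFα against untreated kept its order.

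The first ABLIM1 start, at 114768061, ranked 29550 and 88924 in untreated cells, was absent or at 65948 under cobimetinib and ranked 42798 and 56486 under TNFα. Starts at 114658275 and 114658283 had a peak only in TNFα replicate 1 (rank 47297), and those at 114632044 and 114632092 had one only in untreated replicate 1 (rank 24928) and TNFα replicate 2 (rank 51738). Of 6 groups, the best-ranked group was therefore the one at 241 kb in untreated cells and under TNFα, and the one at 83.1 kb under cobimetinib. Taken as 1 value for each gene, the best start of ABLIM1 ranked 6144 and 10854 in untreated cells, 1006 and 915 under cobimetinib and 8137 and 12035 under TNFα. ABLIM1 was the 1 of the 5 genes whose best start was ahead under cobimetinib, against 13.8% of all coding genes, and in 0 was it behind, against 7.86%. The best start under cobimetinib lies in the leading region, which met the rule that chose the gene, so nothing is read from these shares.

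No start group of NEDD4L ranked under cobimetinib like the pair of ABLIM1 starts in its leading region. Its 29 coding starts formed 13 groups, of which 11 had a peak in at least 1 library and 3 had one in all 6. The group at the 5′ end of the gene, with 11 starts from 58044226 to 58045715, ranked 30830 and 7493 in untreated cells, 29051 and 19004 under cobimetinib and 27360 and 58840 under TNFα. The group at 58195390 to 58195653, 151 kb downstream, ranked 15190 and 6400, 13682 and 14936, and 22110 and 10215 in the same order. In both groups the 3 conditions overlapped. Cobimetinib was ahead of untreated in 3 groups of 1 start each, and behind in 0. These counts too have no share over the start groups of all coding genes beside them, and nothing is read from them. At 58091228 only the cobimetinib libraries had a peak, at 22080 and 33376, at 58323320 only they had one, at 69491 and 20286, and at 58291202 they ranked 24291 and 14936 against 26770 or absent in untreated cells and 19301 or absent under TNFα.

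**Figure D5:**
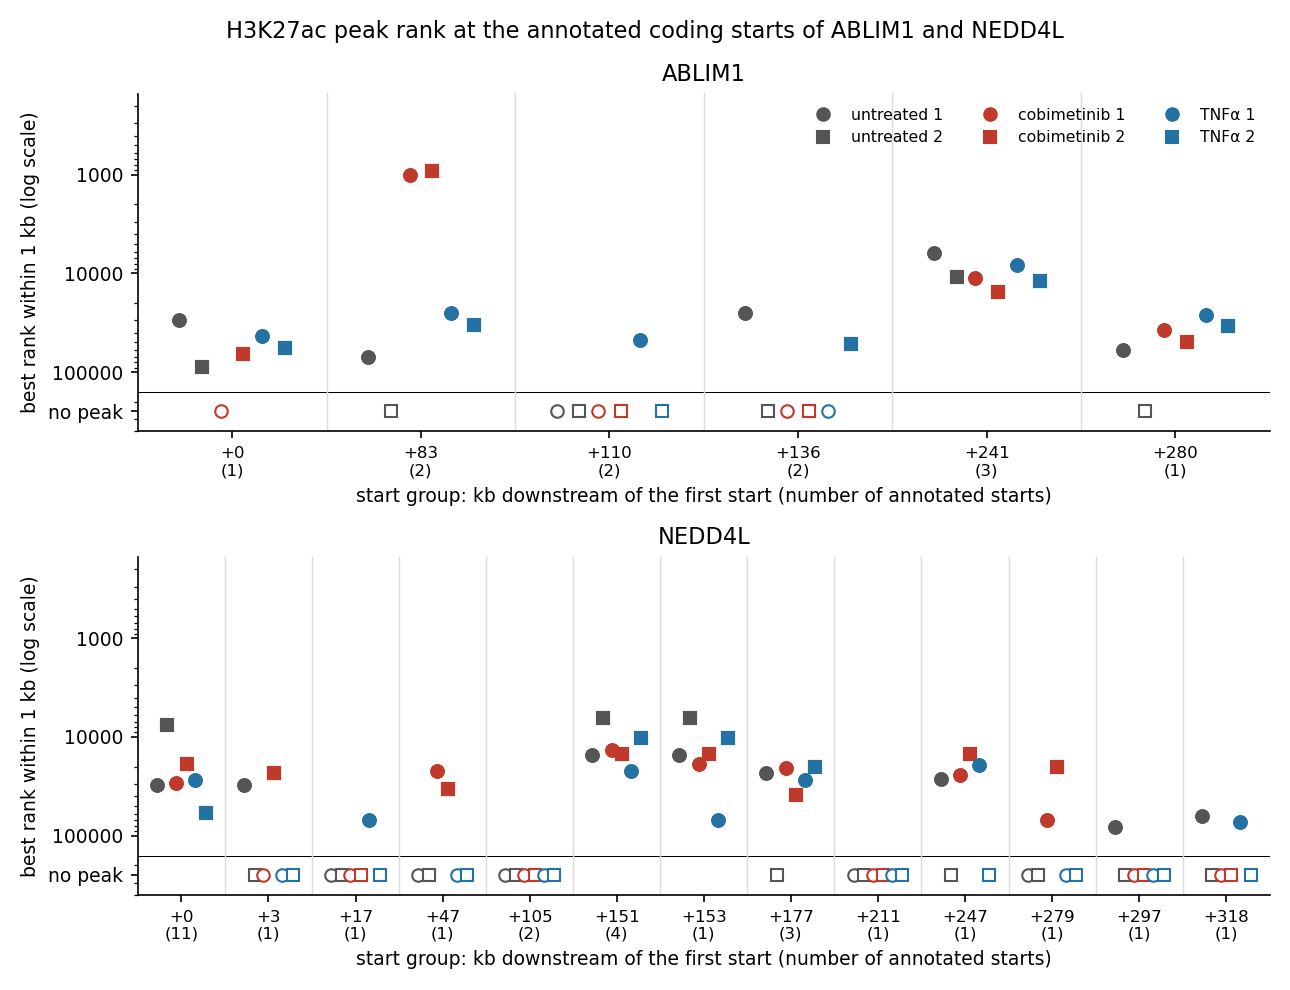
Best H3K27ac peak rank within 1 kb of the annotated coding starts of ABLIM1 and NEDD4L (y axis, log scale with higher ranks towards the top; open symbols, no peak), for groups of starts in the order of transcription (x axis, kb downstream of the first start, with the number of starts in brackets). At ABLIM1 the cobimetinib symbols at 83 kb stand at ranks 1006 and 915, above every other symbol of the plot, and no NEDD4L group shows such a rank.

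Counted as single starts, 10 of the 43 coding starts of the 5 genes had both cobimetinib ranks ahead, against 12.9% of all coding starts, and 3 had both behind, against 6.73%. The 10 were 3 of ABLIM1 and 7 of NEDD4L, and the 3 were those of the ABLIM1 group at 241 kb. Neighbouring starts share peaks, so these counts rest on fewer observations. They include the pair in the leading ABLIM1 region, which met the rule that chose the gene, so nothing is read from the shares. Without untreated replicate 2 the count of 10 became 21, and with only the 20000 highest peaks it became 2, the pair inside the leading ABLIM1 region.

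The sequences of the leading regions were searched for 11 words on both strands, as a description of letters and not of bound factors. The AP1 word TGACTCA was absent from the alkaline phosphatase and ABLIM1 regions, where 35.4% and 35.9% of all regions held it in a central window of the same length, and occurred 1 time in the NEDD4L region, where 47.7% did. The ABLIM1 region held 3 matches to the KLF word GGGTGTG, which 25.9% of windows held, and 1 to the HNF4 word, which 16.1% held. The alkaline phosphatase region held 1 FOX word (TGTTTAC) and 1 TEAD word, present in 15.6% and 21% of windows. The NEDD4L region held 2 TCF/LEF words (ATCAAAG), and 1 CDX word (TTTATGG), present in 29.3% and 31.2% of windows, and 1 TEAD word, present in 14716 of 38598. The CRE word TGACGTCA had 0 matches in all 3 regions, and so had the ETS word CCGGAAG. The word searched for GATA factors was AGATAAG, with 0 matches. The E-box word was CACGTG, likewise with 0 matches. GC content was 46.4%, 43.3% and 41% in the order of the loci above, and CpG dinucleotides stood at 0.557, 0.271 and 0.173 of the number given by base composition, against medians near 0.277 over all regions. Part of the alkaline phosphatase region, 306 of its 1223 bases, had 85 similar stretches elsewhere in the cluster, the longest of 189 bases and at most 88.7% identical, and 2 of these overlapped a peak.

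Other genes of the same families and pathways were set beside the members by the best peak within 1 kb of their coding starts. Of 13 relatives, 2 had both cobimetinib ranks ahead of untreated and 0 had them behind, against 13.8% and 7.86% of all coding genes, the background for the next lists too. The share ahead among the relatives was near that background. DMTN, an actin-bundling protein with a villin headpiece, ranked 10366 and 10080 under cobimetinib, 13980 and 13609 in untreated cells and 17334 and 11808 under TNFα. SMURF2, another HECT ligase, ranked 36409 and 30308 under cobimetinib, 64914 or absent in untreated cells and 73108 and 36672 under TNFα. ALPL, the tissue-nonspecific alkaline phosphatase, had a peak in 1 untreated library (32921), 1 cobimetinib library (33376) and no TNFα library. LIMA1, an actin-binding LIM protein, ranked 1074 to 3376 in all 6 libraries, and its cobimetinib and untreated ranks overlapped.

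Of 7 partners and substrates of NEDD4L, 0 were ahead under cobimetinib and 1 was behind, counts too small to set apart from the 13.8% and 7.86% of all coding genes. NDFIP1, an adaptor that recruits NEDD4 family ligases, ranked 9257 and 9137 in untreated cells, 20820 and 9482 under cobimetinib and 16339 and 12886 under TNFα. SCNN1A, the alpha subunit of the epithelial sodium channel, ranked 12591 and 27559 in untreated cells, 9734 and 13194 under cobimetinib and 13456 and 10039 under TNFα, with overlap.

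Of 20 enterocyte differentiation genes, 9 had no peak in any library, 3 had one in all 6, 1 was ahead under cobimetinib and 1 was behind. The last 2 counts are too small to set apart from the 13.8% and 7.86% of all coding genes. HNF4A, a transcription factor of the intestinal epithelium, ranked 13682 and 12221 under cobimetinib, 15785 and 32440 in untreated cells and 21019 and 16889 under TNFα. KLF4, a factor of differentiated epithelial cells, ranked 11069 and 5377 in untreated cells, 15385 and 23538 under cobimetinib and 11828 and 15904 under TNFα. CDX2, the caudal-type factor of intestinal identity, ranked 16265 and 14285 under cobimetinib and 22206 and 14328 in untreated cells, so the cobimetinib and untreated values overlapped. ANPEP, MGAM and VIL1, which encode brush border proteins, had no peak at their starts in any library, while the brush border enzymes SI, DPP4 and LCT had one in 1, 2 and 1 of the 6 libraries.

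Among 14058 coding genes with a start peak, those whose best start ranks were most like ABLIM1 over the 6 libraries were BOD1L1, LAPTM4A and DPP3, with mean absolute differences in log10 rank of 0.0881, 0.0921 and 0.108. BOD1L1 ranked 692 and 923 under cobimetinib, 9146 and 11483 in untreated cells and 11681 and 11808 under TNFα. For NEDD4L the nearest were LMBRD2 and SKP2, which share their start peaks, at 0.045, and MPI at 0.0478. For ALPP the measure says little, because its single peak of rank 38939 is tied with those of other genes, and 5 genes had a difference of 0, FREY1, PLCZ1 and RASSF9 among them.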

How the data were processed

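The deposited files are H3K27ac CUT&RUN peak lists in hg38, 1 for each of 6 libraries. Per the study's methods, the authors aligned reads with BWA (version 0.7.15 per the labels), kept mapping quality above 10 and called peaks with MACS2 (2.1.1) in each library separately without an IgG background. The methods also describe MACS2 runs in paired-end and single-end modes, whose peaks were merged for each sample at their highest score. If the deposited lists are those merged peaks, each width is a merged span. Column 5 is the authors' peak score, a whole number of at least 20, the value MACS2 gives to a p-value of 0.01. By its peak names, the list of untreated replicate 2 includes a repeat of the sequencing. Read counts are unknown from these lists, so the DESeq2 comparison of the study could not be made here.

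Scores were ranked within each list. The 20000 highest peaks of each list were joined within 100 bp (bedtools 2.31.1 gave the same result on simulated data). A library held a region with 1 bp of overlap. Gained regions were held by both libraries of the treatment and neither control, and lost regions the reverse. For ranks, a missing peak stood behind every peak, and a pair was ahead if both its libraries were ahead of both others. Start sites took the best peak within 1 kb of coding GENCODE 44 starts. The calls were tested on simulated lists. Sequences were read with pysam 0.24.0 and aligned with biopython 1.88 and blastn 2.17.0.

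The genes, lists and words were chosen with earlier results of these data known. Genes named are the 5 members, genes in their windows (DIS3L2 and ECEL1 at the alkaline phosphatase cluster, AFAP1L2 at ABLIM1), up to 5 genes of each list, markers, and the 3 genes most like a member in start rank. In each list, genes whose cobimetinib and untreated ranks did not overlap came first. With 2 libraries a condition no test was run. Replicates are repeats of a treatment of 1 line. Alternatives were other list depths, coverage, joining distance, window and ranks, and each library left out.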

Additional observations from a re-analysis of the deposited data

Results flagged for a closer look

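The number of peaks around the alkaline phosphatase genes moved in opposite directions under the treatments, in every library and relative to the length of each list, with both cobimetinib libraries above and both TNFα libraries below both untreated libraries. Over the whole cluster the cobimetinib mean exceeded the TNFα mean by 12.9 peaks per 100000, around ALPG by 10.8 and around ALPI by 3.31. The difference was not tested, and the cluster was chosen by its peaks in both cobimetinib libraries, which these windows count, so the choice itself raises the cobimetinib side. The 3 values share peaks, the TNFα libraries held 3 and 4 peaks in all, and around ALPP the TNFα and untreated libraries overlapped. Around ALPI the unscaled counts did not separate cobimetinib from untreated cells, at 6 and 4 against 4 and 4.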

How the results depend on the processing

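No paired analysis was possible because the results come from no test. Taking 10000, 40000 or all peaks of each list gave 16, 74 and 233 regions near the members in place of 30. Most counts in this paragraph therefore stand beside the share of all regions called under the same setting. The 7 regions gained under cobimetinib became 3 of 16 with 10000 peaks (5.39% of all regions), 7 of 74 with 40000 peaks (2.31%) and 5 of 233 with all peaks (1.4%). They became 7 to 11 with a library left out (11 without cobimetinib replicate 2, against 10.4%). The 1 lost region became 0 with 40000 peaks or 50% coverage and 3 of 233 with all peaks (1.11%). With a library left out it became 1 to 4, with 4 without untreated replicate 1 (22.8%), 3 without cobimetinib replicate 2 (3.12%) and 2 without cobimetinib replicate 1 (3.1%). The 4 regions gained under TNFα became 2 of 16 with 10000 peaks (4.61%), 4 of 74 with 40000 peaks (1.64%) and 3 of 233 with all peaks (1.37%). They became 2 with 50% coverage (3.66%) and 4 to 7 with a library left out (7 without untreated replicate 1, against 16.4%). The 0 lost under TNFα became 1 of 74 with 40000 peaks (0.653%) and 2 of 233 with all peaks (1.06%). With a library left out it became 0 to 5, with 5 of 31 without untreated replicate 1, below the 22.2% of all regions, and 2 without TNFα replicate 2 (1.95%). The 5 regions of cobimetinib and not TNFα became 3 of 16, 8 of 74 and 10 of 233 with 10000, 40000 and all peaks (6.13%, 2.99% and 1.63%), and 5 to 10 with a library left out (10 without cobimetinib replicate 2, against 11%). The 3 of TNFα and not cobimetinib became 2 of 16 with 10000 peaks (7.52%), 0 of 74 with 40000 peaks (2.53%) and 4 of 233 with all peaks (1.68%). They became 3 to 6 with a library left out (6 without cobimetinib replicate 2, against 8.41%).

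Where all peaks defined the regions, cobimetinib was ahead of untreated in 21 of 233, behind in 6 and ahead of TNFα in 23. The counts of regions ahead or behind under other settings have no share over all regions beside them. Nothing is therefore read from their change. The 2 regions with cobimetinib behind became 4 with ranks as percentages, 1 when tied scores shared their highest rank number, and 4 to 10 with a library left out (10 without untreated replicate 1, 5 without untreated or cobimetinib replicate 2 and 4 without cobimetinib replicate 1). With ranks as percentages the 11 regions ahead of untreated became 8 and the 10 ahead of TNFα became 7. The counts ahead ranged over 13 to 16 and, against TNFα, 11 to 14 with a library left out. The 10 starts ahead became 5 within 2 kb, 2 with 20000 peaks, and 12 to 21 with a library left out (21 without untreated replicate 2). Around the 3 alkaline phosphatase genes the excess of peaks under cobimetinib was chosen after seeing the data, as were its alternatives, the library left out for starts and the inclusion of all tied peaks. It held in 3 to 4 of the 5 genes with a library left out and in 2, ALPP and ALPG, without scaling to list length. The leading regions stayed gained with each library left out; with all deposited peaks none of the 3 was gained, by construction, since untreated replicate 1 has a peak in each.

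Depth is unknown from these lists, so a missing peak is not shown to be a region without the mark. Untreated replicate 2 alone has the tied scores and narrow peaks described above.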
